A study of Drosophila melanogaster with 12 samples.

Results

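The odorant-binding proteins (Obp), odorant receptors (Or), gustatory receptors (Gr) and ionotropic receptors (Ir) are the chemosensory gene families of Drosophila melanogaster. They were taken from the array annotation as the single-gene probe sets whose symbol starts with Obp, Or, Gr or Ir followed directly by a digit. This gave 235 of 13647 single-gene probe sets and 212 of 11982 genes, namely 47 Obp, 56 Or, 56 Gr and 53 Ir genes. Expression was measured on 12 arrays of ovaries from virgin females aged 4 to 6 h, in 4 groups of 3 arrays. The fertile mutant was su(Hw)f/su(Hw)v (f/v), the sterile mutants were su(Hw)2/su(Hw)v (2/v) and su(Hw)Pb/su(Hw)2 (Pb/2), and the wild type (WT) was Canton S. The 2/v and Pb/2 flies have su(Hw)2 in common, f/v and 2/v share the su(Hw)v allele, and only WT comes from a named wild strain, so mutation and strain background cannot be told apart in comparisons with WT. Ovaries of this age hold egg chambers of early and middle stages, and in the sterile mutants egg chambers die after that. Each array held RNA of a pool of about 150 ovary pairs, and nothing says how the pools of a genotype were kept apart, so the p-values below measure the spread between pools, which may be technical.

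Odorant-binding proteins are small secreted proteins that carry hydrophobic molecules in the fluid around sensory neurons, and some are also made in fat body, glia and other tissues. Odorant receptors are ion channels that work with the co-receptor Orco. Gustatory receptors detect sugars, bitter compounds and carbon dioxide, and ionotropic receptors, relatives of glutamate receptors, detect acids, amines, humidity and temperature together with co-receptors such as Ir8a, Ir25a and Ir76b. Most of these genes are known from antennae, mouthparts and legs. Su(Hw) is a zinc finger protein that binds insulators and can also repress genes near its sites.

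Levels below are normalized signals, and changes are log2 fold changes ± standard error on the log2(signal + 16) scale, which understates changes of dim genes. Array medians lay between 96.5 and 132 units as deposited. The gene su(Hw) read 2913, 2708 and 2591 in f/v, 85.1, 129 and 81.4 in 2/v and 85.8, 152.5 and 212 in Pb/2, against 3865, 3562 and 3999 in WT. It was thus low in all 6 arrays of the sterile genotypes. Some label fields name embryos, whereas title, tissue and protocol name ovaries, and the arrays were taken as ovary on that ground. Of 10 ovary markers none was at background on all arrays, which cannot tell the 2 apart because no embryo sample was there for comparison. The hybridization controls, added at a fixed amount, read 1.19 to 1.26 times WT in f/v, 1.37 to 1.44 times in 2/v and 1.43 to 1.58 times in Pb/2.

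Most chemosensory genes were not detected in the ovary. Background was set at 66.5, the 95th percentile of 27 control probe sets for bacterial genes. On all 3 arrays of a group, the member probe sets above it numbered 24 in f/v, 25 in 2/v, 26 in Pb/2 and 25 in WT. That is 10.2, 10.6, 11.1 and 10.6% of the 235, against 63.0, 62.7, 62.6 and 64.1% of the 13412 other single-gene probe sets. Of the 27 bacterial controls themselves, none in f/v, none in 2/v, 1 in Pb/2 and 2 in WT lay above background on all 3 arrays. A more severe line, the highest value of any control on any array (103), left 14 member probe sets in f/v, 17 in 2/v, 17 in Pb/2 and 17 in WT. On none of the 12 arrays were 160 member probe sets above background, and their signals ran from 0.891 to 66.2 with a median of 20.1.

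**Figure D1:**
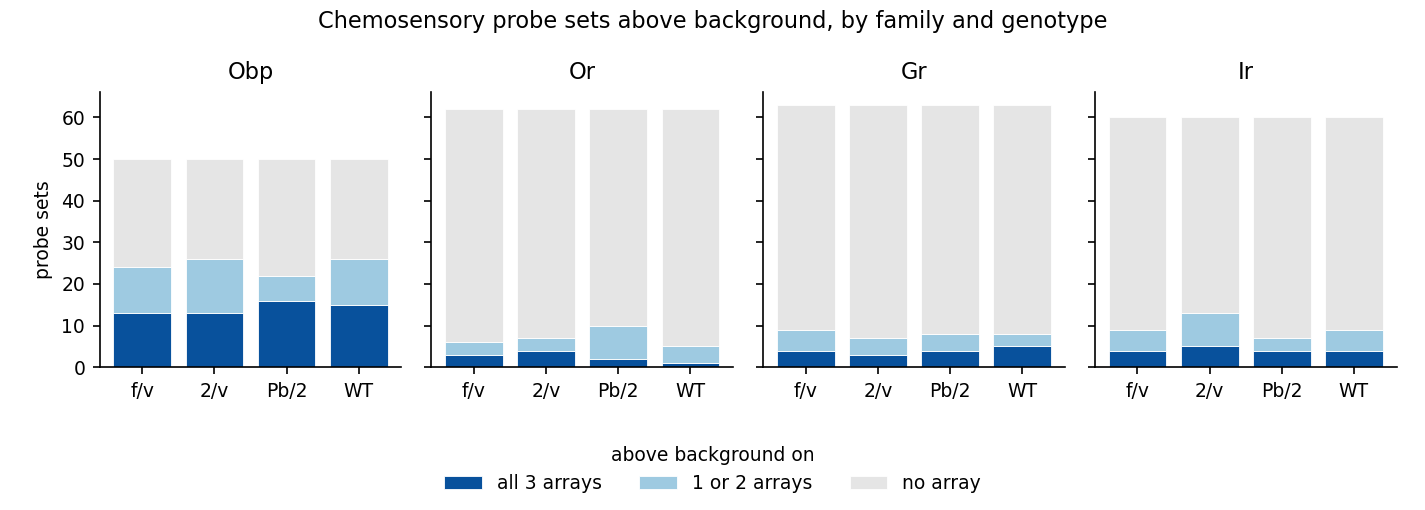
Number of probe sets (vertical axis) above background on all 3 arrays, on 1 or 2 arrays or on no array of each genotype (horizontal axis), with a panel for each family. Between 13 and 16 of 50 Obp probe sets were above background on all 3 arrays, and at most 5 of 60 to 63 in each receptor family.

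The binding proteins made up most of the detected members. Above background on all 3 arrays of at least 1 genotype were 19 of 47 Obp genes (40.4%), 6 of 56 Or genes (10.7%), 4 of 56 Gr genes (7.14%) and 7 of 53 Ir genes (13.2%). On all 12 arrays there were 9 Obp genes (Obp18a, Obp19c, Obp19d, Obp44a, Obp49a, Obp84a, Obp99a, Obp99b and Obp99c), 1 Or gene (Or43b), 2 Gr genes (Gr39a and Gr61a) and 3 Ir genes (Ir7b, Ir7c and Ir76a). Of these, 10 passed the more severe line on all 12 arrays, namely Obp18a, Obp44a, Obp84a, Obp99a, Obp99b, Obp99c, Or43b, Gr39a, Ir7c and Ir76a. In these pooled ovaries, a few cells with much of a transcript and many cells with little of it cannot be told apart.

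Several genes used by chemosensory neurons or their hairs stayed low, but not all such genes did. Snmp1, with means of 352 in WT and 938 in f/v, and ppk29, with 1237 in WT, lay well above background. Of 32 smell and taste genes outside the naming rule with a single-gene probe set, 15 were at background on all 12 arrays. Orco, the co-receptor of the odorant receptors, was above background on none of the 12 arrays, as were lush, an odorant-binding protein of pheromone-sensing hairs, and acj6, a transcription factor that selects odorant receptors. Gr63a, a subunit of the carbon dioxide receptor, was above background on none, and its partner Gr21a on 2. Of the ionotropic co-receptors, Ir8a was above background on 2 arrays, Ir25a on 4 and Ir76b on 2. Of the taste receptor genes Gr5a (trehalose) and Gr66a (bitter compounds), the first was above background on 6 arrays and the second on 4, and neither on all 3 arrays of a genotype.

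Release from silence was counted as a move from no array above background in WT to all 3 arrays above it in a mutant. In WT, 187 of the 235 member probe sets were at background on all 3 arrays. Of these, 1 was on in f/v (Or67a), 1 in 2/v (Ir75a) and 2 in Pb/2 (Ir75a and Or9a). These are 0.535, 0.535 and 1.07% of the silent member probe sets, against 2.22, 3.01 and 3.81% of the other silent single-gene probe sets. Over all 13647 single-gene probe sets, the share that went from off to on was 0.601% (f/v), 0.813% (2/v) and 1.03% (Pb/2). In the other direction Obp57a, Obp56d and Ir40a went from on to off in f/v, and Ir40a in 2/v and in Pb/2. Over all single-gene probe sets, 148 (1.08%, f/v), 145 (1.06%, 2/v) and 168 (1.23%, Pb/2) made this move. Those that could make it, being on in all 3 WT arrays, were 25 member probe sets and 8593 other single-gene probe sets.

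Set against f/v, Ir75a, Ir68b, Obp56d and Obp57a went from off to on in 2/v, and Ir75a, Obp56d, Obp57a, Obp69a and Or9a in Pb/2. These are 2.14% (2/v) and 2.67% (Pb/2) of the 187 member probe sets that were off in f/v, close to 2.29 and 2.51% of the other silent single-gene probe sets. Over all single-gene probe sets the shares were 0.638 and 0.703%. Obp56d and Obp57a are not cases of release from silence in WT, since WT had both on. Or67a and Ir93a went from on to off in 2/v, where the share over all single-gene probe sets was 0.469%, and no member did in Pb/2 (0.528%). On in all 3 f/v arrays were 24 member probe sets and 8451 other single-gene probe sets. The moves of Ir68b and Ir93a in 2/v against f/v and of Ir40a in 2/v against WT did not pass the test. Ir75a made its move against WT in both sterile genotypes at each of the other 5 background lines tried, and Or9a at none of them. Or67a made its move in f/v at 3 of them, and not with the line at the 90th percentile or at the highest control value. At the highest control value Obp8a also counted as off in WT and on in all 3 mutants, and Obp69a as off in WT and on in Pb/2.

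Tests covered 52 member genes, those whose signal exceeded their array's 40th percentile on 3 or more of 12 arrays (26 Obp, 7 Or, 6 Gr and 13 Ir), together with all other such genes (9147 in all). The other 160 member genes were not tested. A member that entered only through the genotype where it was high had to differ, so the counts describe these genes and are read against the share of all genes. Among such members, Ir75a entered through the sterile genotypes, Ir40a through WT and Or67a mainly through f/v. Their adjusted p-values add no support beyond the values themselves. In f/v against WT, 17 members were called, 8 higher and 9 lower, which is 32.7% against a share of 35% among all genes (18.2% higher and 16.8% lower). In 2/v against WT, 16 were called, 7 higher and 9 lower (30.8%, against 46.3% of all genes, 24% higher and 22.3% lower). In Pb/2 against WT, 23 were called, 10 higher and 13 lower (44.2%, against 31.3% of all genes, 15.8% higher and 15.6% lower). In 2/v against f/v, 11 were called, 6 higher and 5 lower (21.2%, against 27.3% of all genes, 13.7% higher and 13.5% lower). In Pb/2 against f/v, 14 were called, 9 higher and 5 lower (26.9%, against 20.5% of all genes, 9.98% higher and 10.5% lower). All calls were at an adjusted p below 0.05 (limma, Benjamini and Hochberg). Calls with a change of at least 2-fold numbered 7 in f/v against WT (8.14% of all genes), 4 in 2/v against WT (10.7%), 14 in Pb/2 against WT (10.2%), 6 in 2/v against f/v (5.9%) and 8 in Pb/2 against f/v (4.83%). In Pb/2 against WT, 4 of the 14 were higher and 10 lower. The median change of the tested members against WT was -0.10 (f/v), -0.12 (2/v) and 0.06 (Pb/2), beside 0.02, 0.01 and 0.00 over all genes.

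Members whose 3 arrays did not overlap those of WT numbered 8 higher and 11 lower in f/v (25.6 and 24% of all genes), 6 higher and 15 lower in 2/v (29.6 and 27.3%), and 14 higher and 17 lower in Pb/2 (22.8 and 22.5%). Against f/v they numbered 10 higher and 9 lower in 2/v (21.9% of all genes each way) and 10 higher and 9 lower in Pb/2 (17.6 and 20.3%). Lack of overlap was thus common among all genes, and for single members it is a description.

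The split into higher and lower depended on the scaling of the arrays. With values as deposited, 4 members were higher and 13 lower in f/v against WT, 4 and 12 in 2/v, and 6 and 15 in Pb/2. With the array median subtracted, 7 were higher and 6 lower in 2/v against WT, and 6 higher and 3 lower in 2/v against f/v. That scaling moved the median of all genes against WT to 0.15 (f/v), 0.20 (2/v) and 0.17 (Pb/2). No member call changed direction under any of the alternatives. In all, 29 members were called in at least 1 comparison, 20 of them with a change of at least 2-fold.

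**Figure D2:**
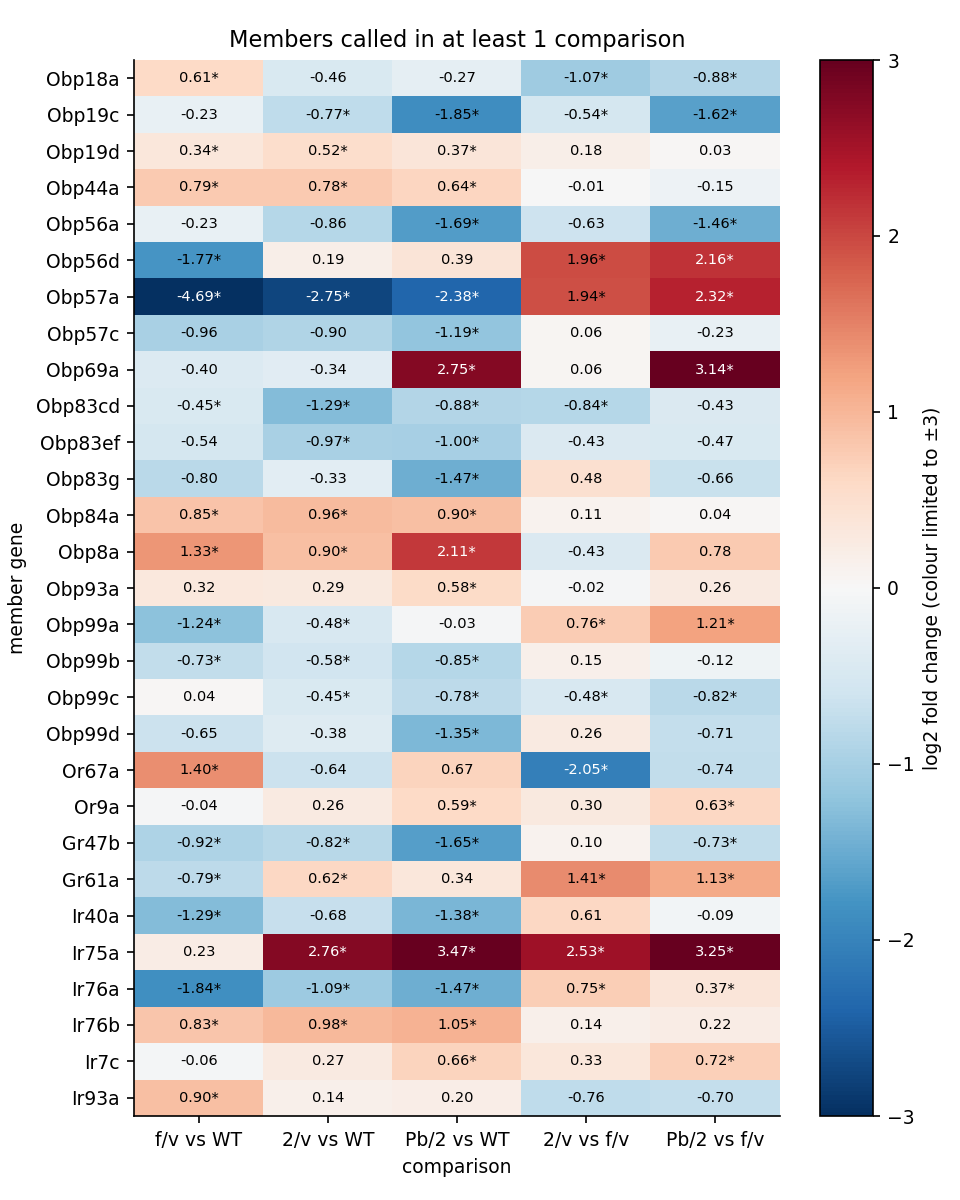
Log2 fold changes of the 29 members called in at least 1 comparison (rows) in each of 5 comparisons (columns), with red for higher and blue for lower in the genotype named first, and an asterisk for a call. Ir75a is high in all 4 comparisons of a sterile genotype with a fertile one, and Obp57a is lowest in f/v against WT.

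Among the binding proteins the largest change was that of Obp57a (1626586_at), a gene of a tandem cluster with Obp57b and Obp57c. It read 39.8, 32.8 and 18.6 in f/v, 206, 156.5 and 123 in 2/v and 197, 200.1 and 237 in Pb/2, against 1031, 1181 and 1287 in WT. The signal was at background in all f/v arrays, well above it in the sterile genotypes and highest in WT, with no overlap between WT and any mutant. Obp57a fell by 4.69 ± 0.20 in f/v (adjusted p = 5.5e-08, at least 17.5-fold lower), by 2.75 ± 0.20 in 2/v (adjusted p = 2.8e-06) and by 2.38 ± 0.20 in Pb/2 (adjusted p = 7.8e-06). Relative to f/v, the rise was 1.94 ± 0.20 in 2/v and 2.32 ± 0.20 in Pb/2 (at least 2.38 and 3.17-fold higher). With a pseudocount of 64, the fall in f/v was 3.70. Its cluster neighbours also had lower values in the mutants than in WT, of which 1 passed the test. Obp57b changed by -0.66 (f/v), -0.41 (2/v) and -0.22 (Pb/2) against WT, each ± 0.26, and was called in no comparison. Obp57c read 29.3, 70.8 and 32.6 in f/v, 43.8, 44.6 and 44.4 in 2/v and 12.7, 37.6 and 60.6 in Pb/2, against 123, 61.2 and 116 in WT. Its changes were -0.96 (f/v, adjusted p = 0.066), -0.90 (2/v, adjusted p = 0.068) and -1.19 (Pb/2, adjusted p = 0.030), each ± 0.37. The call in Pb/2 ended without WT replicate 1 (-1.04), WT replicate 3 (-1.08), Pb/2 replicate 1 (-0.81) or Pb/2 replicate 2 (-1.26).

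Obp69a (1627385_at), which has been linked to the response of flies to a male pheromone, was high in a single genotype. It read 63.0, 64 and 31.7 in f/v, 60.3, 52.4 and 49.2 in 2/v and 571, 583 and 577 in Pb/2, against 60.7, 101 and 60.8 in WT. All 3 Pb/2 arrays stood far above the 9 others, of which 1 WT array was above background. It rose by 2.75 ± 0.21 in Pb/2 against WT (adjusted p = 4.0e-06) and by 3.14 ± 0.21 against f/v (adjusted p = 3.1e-06, at least 8.68-fold). In 2/v it changed by -0.34 ± 0.21 against WT and did not pass the test. A comparison of Pb/2 with 2/v was not made.

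Obp8a (1631115_at) was higher in every mutant. It read 180, 187 and 185.5 in f/v, 132, 129 and 136 in 2/v and 293, 271 and 442 in Pb/2, against 35.4, 95.4 and 72.2 in WT. No mutant array overlapped the WT arrays, 2 of which were above background. The rise was 1.33 ± 0.25 in f/v (adjusted p = 0.0023), 0.90 ± 0.25 in 2/v and 2.11 ± 0.25 in Pb/2 (adjusted p = 1.0e-04). The call in 2/v ended with values as deposited.

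Obp56d, a gene of the Obp56 cluster, was at background only in f/v among the 4 genotypes. It read 24.7, 15.9 and 6.9 in f/v, 131.5, 88.4 and 97.5 in 2/v and 128, 110.1 and 131 in Pb/2, against 67.6, 108 and 98.2 in WT. It fell by 1.77 ± 0.22 in f/v against WT (adjusted p = 1.4e-04, at least 1.35-fold lower), and 1 of the WT arrays was only just above background. Its rise relative to f/v was 1.96 ± 0.22 in 2/v and 2.16 ± 0.22 in Pb/2. With a pseudocount of 64 these changes of Obp56d were -0.96, 1.09 and 1.23. Its cluster neighbour Obp56a read 66.4, 59.0 and 58.7 in f/v, 17.7, 38.4 and 51.9 in 2/v and 7.8, 34.9 and 2.4 in Pb/2, against 72.6, 57.0 and 98.7 in WT. Obp56a fell by 1.69 ± 0.36 in Pb/2 against WT (adjusted p = 0.0047), and by 1.46 ± 0.36 against f/v, where both groups lay below background and the call ended without f/v replicate 1 (-1.41), Pb/2 replicate 1 (-1.34) or Pb/2 replicate 3 (-1.15).

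Of the Obp99 genes, Obp99a, Obp99b and Obp99c were above background on all 12 arrays, and the other one, Obp99d, on 6. Obp99a read 4105, 5378 and 4915 in f/v, 8080.1, 8019 and 8122 in 2/v and 10653, 10666 and 11869 in Pb/2, against 11740, 10729 and 11439 in WT. It was lowest in f/v, and the Pb/2 arrays overlapped the WT arrays. It fell by 1.24 ± 0.10 in f/v against WT (adjusted p = 5.1e-06) and by 0.48 ± 0.10 in 2/v, and rose by 1.21 ± 0.10 in Pb/2 against f/v. Its change of -0.03 in Pb/2 against WT did not pass the test. Obp99b, known from fat body of the head, changed by -0.73 (f/v), -0.58 (2/v) and -0.85 (Pb/2), each ± 0.11. Obp99c changed by -0.45 ± 0.11 (2/v) and -0.78 ± 0.11 (Pb/2), and its change of 0.04 in f/v did not pass the test. With the array median subtracted, the calls of Obp99a, Obp99b and Obp99c in 2/v against WT ended, and Obp99a then read -0.10. Obp99d read 62.8, 91.1 and 25.7 in f/v, 81.5, 64.5 and 61.7 in 2/v and 15.1, 13.0 and 73.9 in Pb/2, against 135, 76.3 and 80.8 in WT. It changed by -1.35 ± 0.45 in Pb/2 (adjusted p = 0.042). The call of Obp99d was lost in 9 of the 12 omissions of single arrays, with values between -1.06 and -1.48.

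Obp44a, secreted by glia in the nervous system, and Obp84a, a protein of antennal hairs, rose in all 3 mutants. Obp44a read 1523, 1511 and 1559 in f/v, 1222, 1981 and 1446 in 2/v and 1639, 1378 and 1150 in Pb/2, against 903, 899 and 834 in WT. Obp84a read 945, 969 and 858 in f/v, 968, 1021 and 996 in 2/v and 900.0, 1010.1 and 949 in Pb/2, against 525.5, 411 and 591 in WT. No mutant array of these genes overlapped a WT array. The rises were 0.79, 0.78 and 0.64 (± 0.17) for Obp44a and 0.85, 0.96 and 0.90 (± 0.12) for Obp84a in f/v, 2/v and Pb/2 against WT. The 2 differed by at most 0.15 between each sterile genotype and f/v, where neither was called. The call of Obp44a in Pb/2 ended with values as deposited (0.49) and without Pb/2 replicate 1 (0.51).

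On the X chromosome lie Obp18a and the cluster that holds Obp19b, Obp19c and Obp19d. Obp19c read 246, 315 and 271 in f/v, 165, 155 and 247 in 2/v and 96.0, 73.3 and 69.7 in Pb/2, against 349, 331 and 302 in WT. Its log2 change against WT was -0.77 ± 0.17 in 2/v and -1.85 ± 0.17 in Pb/2 (adjusted p = 1.4e-05 in Pb/2), and it was -1.62 ± 0.17 in Pb/2 against f/v. Its other probe set stayed below background on all 12 arrays. The next gene, Obp19d, read 140.0, 139 and 131 in f/v, 150.0, 161.5 and 160.0 in 2/v and 130.2, 131 and 161 in Pb/2, against 96.1, 92.6 and 129 in WT. It rose by 0.52 ± 0.11 in 2/v, so Obp19c and Obp19d moved in opposite directions there. However, the only probe set of Obp19d carries the suffix s_at, which marks probes shared by several transcripts. With values as deposited, the change of Obp19d in 2/v was 0.23 and was not called, and its calls in f/v and Pb/2 ended too. Obp18a read 313, 460 and 292 in f/v, 142, 179 and 153.5 in 2/v and 131, 216 and 209 in Pb/2, against 201, 226 and 243.5 in WT. Its changes against f/v were -1.07 ± 0.20 in 2/v and -0.88 ± 0.20 in Pb/2, and the second was not called with only the arrays of these groups.

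Obp83cd, Obp83ef and Obp83g, which lie in this order on chromosome arm 3R, were lower in mutants in part of the comparisons. The spans of Obp83cd and Obp83ef overlap. Obp83cd read 108, 120 and 99.7 in f/v, 43.9, 47.8 and 72.2 in 2/v and 76.6, 87.9 and 67.3 in Pb/2, against 183, 136 and 149 in WT. It fell by 1.29 ± 0.16 in 2/v (adjusted p = 9.6e-05) and by 0.88 ± 0.16 in Pb/2 against WT. In f/v it fell by 0.45 ± 0.16 (adjusted p = 0.047), a call lost in 13 of 23 alternatives. Obp83ef read 83.9, 144 and 108 in f/v, 109, 53.2 and 78.0 in 2/v and 111, 78.8 and 46.9 in Pb/2, against 153, 180.5 and 167.5 in WT, so all mutant arrays lay below the WT arrays. Obp83g read 41.3, 16.9 and 72.9 in f/v, 36.1, 86.5 and 68.2 in 2/v and 10.6, 11.6 and 41.3 in Pb/2, against 54.7, 101 and 91.0 in WT. In 2/v Obp83ef fell by 0.97 ± 0.28 (adjusted p = 0.017), a call that ended without WT replicate 2 or 2/v replicate 2. In Pb/2 the falls were 1.00 ± 0.28 (Obp83ef, adjusted p = 0.020) and 1.47 ± 0.42 (Obp83g, adjusted p = 0.022). The Pb/2 call of Obp83ef ended without WT replicate 2 (-0.95), WT replicate 3 (where it still fell by 1.00) or Pb/2 replicate 3 (-0.74). That of Obp83g ended without WT replicate 2 (-1.32), WT replicate 3 (-1.39), Pb/2 replicate 1 (-1.27) or Pb/2 replicate 2 (-1.30).

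**Figure D3:**
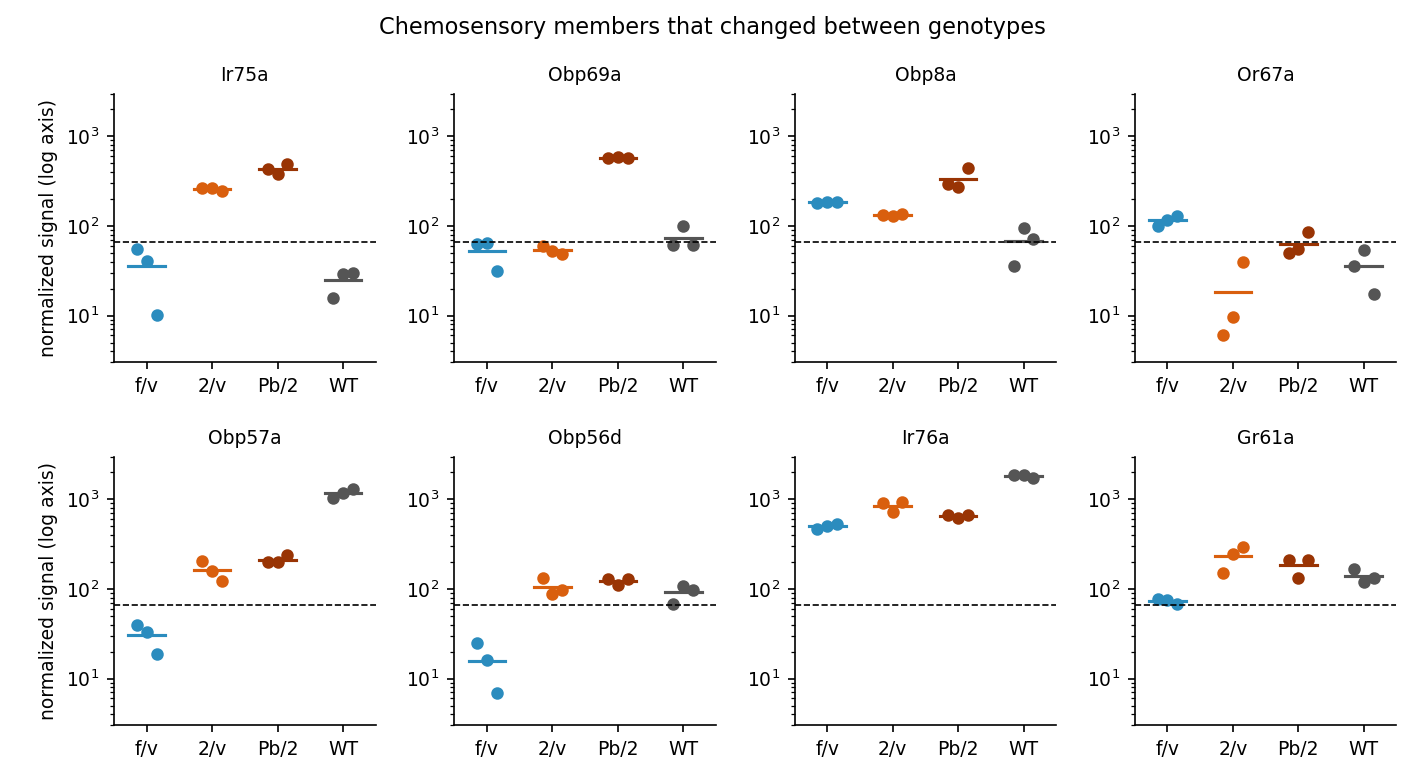
Normalized signal on a log axis (vertical) of 8 members in each array (points) of the 4 genotypes (horizontal), with the group mean as a bar and background (66.5) as a dashed line. Ir75a is above the line in the sterile genotypes, Obp69a clearly so in Pb/2, and Obp57a and Obp56d are below it in f/v.

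Among the odorant receptors, Or43b, which detects fruit esters, stood out for its steady signal. It read 1010, 1015 and 1272 in f/v, 1037, 1054 and 1003 in 2/v and 1146, 1059 and 973 in Pb/2, against 1210.5, 1137 and 1022 in WT. The groups overlapped, and its changes in the 5 comparisons lay between -0.12 and -0.04 (± 0.10), none of which passed the test. Or67a, another ester receptor, read 98.7, 117 and 130.2 in f/v, 6.1, 9.6 and 40 in 2/v and 50.2, 55.8 and 85.2 in Pb/2, against 36.2, 53.5 and 17.2 in WT. All 3 f/v arrays lay above background and above every array of the other genotypes, of which 1 Pb/2 array was above background. It rose by 1.40 ± 0.36 in f/v against WT (adjusted p = 0.012, at least 1.72-fold) and changed by -2.05 ± 0.36 in 2/v against f/v (adjusted p = 0.0019). The second change was -2.99 with a pseudocount of 1 and -1.14 with 64.

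Or9a crossed background by a small margin. It read 43.9, 55.2 and 48.3 in f/v, 65.2, 71.2 and 56.1 in 2/v and 79.7, 111 and 66.9 in Pb/2, against 66.4, 55.1 and 34.4 in WT, so the lowest Pb/2 array and the highest WT array lay next to each other around the line of 66.5. The rise was 0.59 ± 0.19 (adjusted p = 0.040, with 0.017 and 0.14 as the ends of its alternatives). The call was lost with values as deposited, with the arrays of these 2 groups alone, and in 8 of the 12 omissions of single arrays. Apart from Or9a and Or67a, no odorant receptor was called in any of the 5 comparisons, and 49 of 56 odorant receptor genes were not tested.

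Of the gustatory receptors, Gr61a, a sugar receptor, followed an order of its own. It read 77.7, 76.0 and 67.5 in f/v, 151, 248 and 292 in 2/v and 209, 133.5 and 208 in Pb/2, against 169, 121 and 131.5 in WT. The f/v arrays lay just above background and below those of all other genotypes. It was 1.41 ± 0.23 higher in 2/v (adjusted p = 0.0013) and 1.13 ± 0.23 higher in Pb/2 (adjusted p = 0.0062) than in f/v, and the fall of 0.79 in f/v against WT was lost without WT replicate 1, f/v replicate 2 or f/v replicate 3 (-0.99 to -0.56 over its alternatives). Gr47b read 103, 131 and 111 in f/v, 104, 134 and 136 in 2/v and 55.2, 88.1 and 49.4 in Pb/2, against 214, 188 and 305 in WT. No mutant array overlapped the WT arrays, and Gr47b changed by -0.92 (f/v), -0.82 (2/v) and -1.65 (Pb/2, adjusted p = 1.4e-04), each ± 0.21.

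Gr39a, whose transcripts start from several alternative first exons, has 5 probe sets. One of them (1638056_at) read 277, 123 and 181 in f/v, 163, 271 and 193 in 2/v and 317.5, 275 and 269 in Pb/2, against 200.1, 128 and 216.5 in WT. A second, 1639617_at, was above background on 10 of 12 arrays, and the other 3 stayed below it on all arrays. Gr39a was not called in any comparison. Gr43a, a fructose receptor, read 112, 101 and 120 in f/v, 75.2, 95.4 and 61.7 in 2/v and 73.8, 74.5 and 75.3 in Pb/2, against 74.0, 130 and 104.5 in WT, and was not called either.

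Ir75a (1638785_at), an antennal receptor for acetic acid, changed most among the ionotropic receptors. It read 264, 265.5 and 246 in 2/v and 430.5, 384 and 490.4 in Pb/2, against 54.9, 41.1 and 10.2 in f/v and 15.9, 29.4 and 29.6 in WT. All 6 arrays of the sterile genotypes were above background and all 6 arrays of the fertile ones below it. It rose by 2.76 ± 0.31 in 2/v (adjusted p = 5.3e-05, at least 3.88-fold) and by 3.47 ± 0.31 in Pb/2 (adjusted p = 1.1e-05, at least 6.51-fold) against WT. Against f/v the rise was 2.53 ± 0.31 in 2/v, with an adjusted p of 1.9e-04, and 3.25 ± 0.31 in Pb/2, with an adjusted p of 4.1e-05. Ir75a entered the tests only through the sterile arrays, where it was high, so these p-values describe the difference and add no support. The size of the rise depended on the pseudocount, from 1.86 with 64 to 3.37 with 1 in 2/v against WT and from 2.49 to 4.12 in Pb/2, and the call held in every alternative for these 4 comparisons. The adjacent paralogue Ir75b stayed below background on all 12 arrays, with 19.4, 12.5 and 43.6 in 2/v, 42.9, 45.9 and 30.4 in Pb/2, 52.2, 42.3 and 9.9 in f/v and 13.1, 19.6 and 28.8 in WT. Both sterile genotypes carry su(Hw)2, so that allele with its linked sequence and the loss of su(Hw) cannot be told apart here.

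Ir76a, a receptor for amines, was detected on every array. It read 471, 499 and 527 in f/v, 915, 714 and 929 in 2/v and 669, 615 and 661 in Pb/2, against 1855, 1881 and 1729 in WT. Every mutant array was below every WT array. Its changes against WT were -1.84 ± 0.10 (f/v, adjusted p = 3.8e-07), -1.09 ± 0.10 (2/v, adjusted p = 1.5e-05) and -1.47 ± 0.10 (Pb/2, adjusted p = 1.8e-06), and it was 0.75 ± 0.10 higher in 2/v than in f/v. Its only probe set carries the suffix s_at, which marks probes shared by several transcripts, and in Release 6 its span overlaps that of CG14102. CG14102 read 432.5, 547 and 481 in f/v, 1081, 1216 and 1009 in 2/v and 931, 1065 and 1051 in Pb/2, against 1021, 1095 and 1168 in WT, so it was low in f/v but overlapped WT in the sterile genotypes.

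The other ionotropic receptors that were called changed near background or by less. Ir7c read 332, 429 and 341 in f/v, 474, 485 and 433 in 2/v and 580.5, 468 and 845 in Pb/2, against 434, 343 and 374.5 in WT. It rose by 0.66 ± 0.19 in Pb/2 against WT and by 0.72 ± 0.19 against f/v, calls that ended with only the arrays of the groups compared. The first also ended without WT replicate 2 (0.58), WT replicate 3 (0.64) or Pb/2 replicate 3 (0.43), and the second without f/v replicate 1 (0.66) or f/v replicate 3 (0.68). Ir40a, needed for sensing dry air, read 8.0, 37.4 and 23.8 in f/v, 51.2, 40.7 and 31.6 in 2/v and 5.8, 16.1 and 44.3 in Pb/2, against 71.7, 73.6 and 79.2 in WT. All WT arrays were above background and all mutant arrays below it, but by little (at least 1.12-fold lower in f/v and Pb/2), and 2/v was not called (-0.68 ± 0.36). The changes were -1.29 ± 0.36 in f/v (adjusted p = 0.018, lost without f/v replicate 1 at -0.98) and -1.38 ± 0.36 in Pb/2 (adjusted p = 0.014). Its second probe set was above background on 1 of 12 arrays.

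Ir93a, which acts in sensing temperature and humidity, read 83.1, 113.5 and 118 in f/v, 58.7, 66.1 and 42 in 2/v and 108, 42.3 and 39.0 in Pb/2, against 42.2, 70.0 and 36.6 in WT. All 3 arrays of 2/v were below background and below those of f/v, but the change of -0.76 ± 0.31 was not called (adjusted p = 0.093). Against WT it rose by 0.90 ± 0.31 in f/v, and this call was lost without any 1 of 6 arrays, among them WT replicate 1 (0.83) and WT replicate 3 (0.76). The co-receptor gene Ir76b read 63.8, 48.7 and 41.6 in f/v, 80.7, 58.7 and 39.6 in 2/v and 93.2, 64.1 and 37.7 in Pb/2, against 14.4, 29.4 and 22.1 in WT. Only 2 of these 12 values were above background, although no mutant array overlapped WT. Ir76b was called higher by 0.83 in f/v (adjusted p = 0.039), 0.98 in 2/v and 1.05 in Pb/2 (adjusted p = 0.015), each ± 0.28. The call in f/v was lost in 12 of 23 alternatives. That in 2/v was lost without WT replicate 1 or 2/v replicate 1, and that in Pb/2 without WT replicate 1 (0.90) or Pb/2 replicate 1 (0.81). Ir68b read 47.0, 35 and 13.8 in f/v, 71.4, 73.5 and 89.9 in 2/v and 35.2, 40.6 and 22.5 in Pb/2, against 15.4, 68.6 and 92.0 in WT. All 3 arrays of 2/v were above background and none of f/v, and the change of 1.04 ± 0.42 was not called (adjusted p = 0.093). Ir7b read 131, 90.2 and 125 in f/v, 129, 83.8 and 67.4 in 2/v and 124, 103 and 102 in Pb/2, against 93.7, 93.4 and 90.5 in WT, and was called in no comparison.

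The genes that lie next to the changed members were looked up in the gene order of Release 6, since the array annotation names no build. For 22 members (the 20 called with at least 2-fold change, and Or9a and Ir93a, which crossed background) and the genes immediately before and after each of them, there were 124 combinations with a comparison in which the member was called, and the neighbour was tested in 98. The neighbour was called in the same direction in 36, in the opposite direction in 6 and not called in 56. Some neighbours are members themselves, recur, overlap the member, or lie below background in both groups. Calls in either direction covered 20.5 to 46.3% of all genes in a comparison. The share of all genes called higher ran from 9.98% (Pb/2 against f/v) to 24% (2/v against WT). The share called lower ran from 10.5 to 22.3% in the same comparisons. The count of 36 was not tested against these shares. Cln3, a lysosomal membrane protein gene before Ir75a, read 1363, 1461 and 1255 in 2/v and 1121, 1216 and 1295 in Pb/2, against 400.3, 512 and 447 in f/v and 351, 330 and 346 in WT. It rose by 1.94 in 2/v and 1.77 in Pb/2 against WT, in the same 6 arrays as Ir75a.

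**Figure D4:**
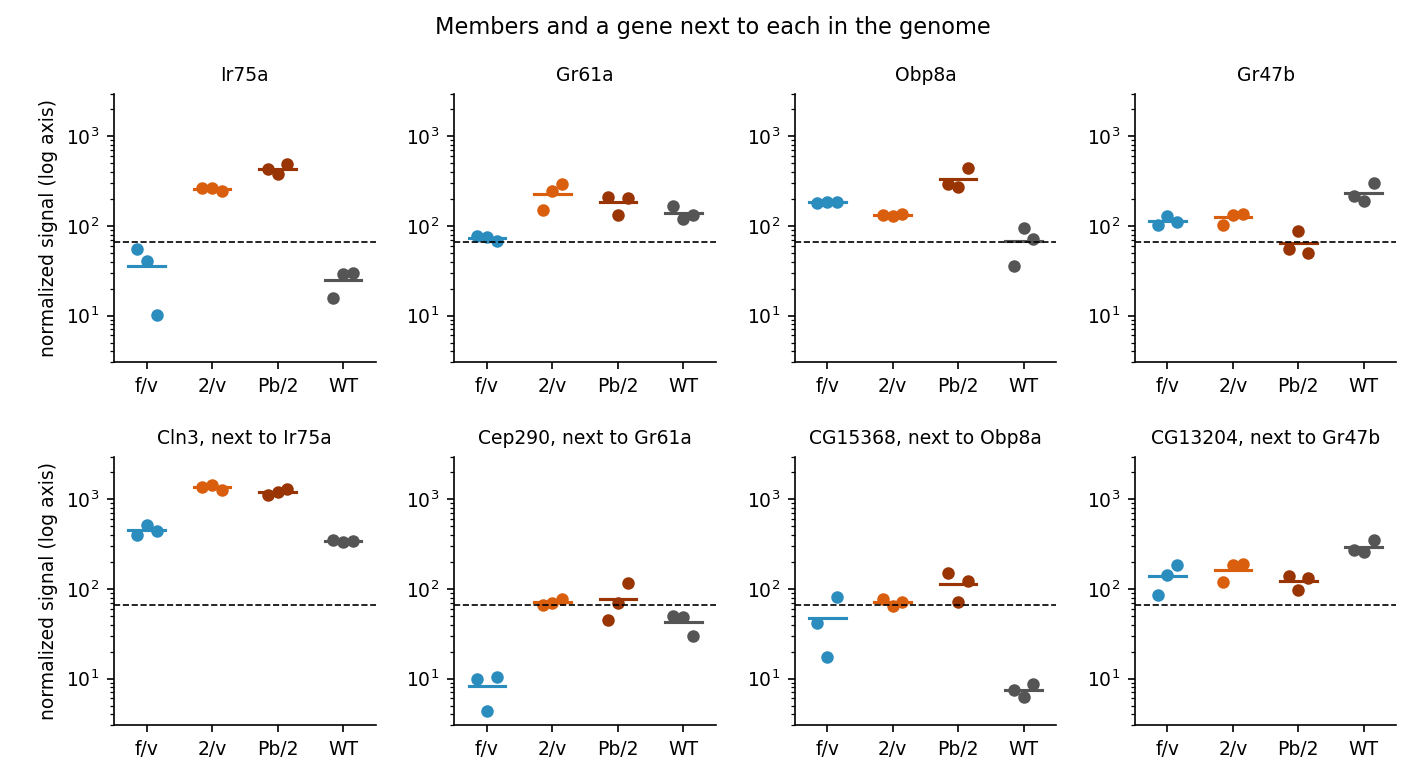
Normalized signal on a log axis (vertical) in each array (points) of 4 members (top row) and of an adjacent gene (bottom row), by genotype (horizontal), with group means as bars and background as a dashed line. The pairs were chosen after their values were seen, and Cln3 is high in the sterile genotypes as is Ir75a, Cep290 lowest in f/v as is Gr61a, CG15368 lowest in WT as is Obp8a, and CG13204 highest in WT as is Gr47b.

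Cep290, a gene of the cilium base that follows Gr61a, read 9.8, 4.3 and 10.4 in f/v, 65.5, 70 and 78.1 in 2/v and 44.6, 70.5 and 116 in Pb/2, against 50.1, 48.9 and 29.7 in WT, so f/v and WT both lay below background. CG15368, after Obp8a, read 42.1, 17.4 and 81.5 in f/v, 76.9, 64.8 and 71.1 in 2/v and 150, 70.6 and 124 in Pb/2, against 7.5, 6.2 and 8.6 in WT. It was above background on all 3 arrays of Pb/2 only, while SmydA-9 on the other side fell by 0.92, 1.32 and 1.00. CG13204, after Gr47b, fell by 1.03, 0.79 and 1.15 in f/v, 2/v and Pb/2 against WT. Gasp, a chitin-binding protein gene beside Obp83cd, fell by 0.81, 1.89 and 1.48. KaiR1D, a glutamate receptor gene next to Ir93a, read 38.8, 45.5 and 31 in f/v, 17.6, 16.1 and 23.8 in 2/v and 93.9, 105.5 and 104 in Pb/2, against 17, 1.3 and 17.3 in WT. It was above background in Pb/2, where Ir93a was not called against WT, and below it in the other genotypes. For Obp69a, whose span overlaps that of CG32104, the neighbour rose in all 3 mutants (1.05, 0.97 and 1.09), whereas Obp69a rose in Pb/2.

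Other genes of smell and taste outside the naming rule were taken as a list of 42, of which 32 had a single-gene probe set, 15 were at background on all 12 arrays and 11 were tested. Against WT, 2 rose and 4 fell in f/v, none rose and 3 fell in 2/v, and none rose and 4 fell in Pb/2. Of all genes, 18.2% (f/v), 24% (2/v) and 15.8% (Pb/2) were called higher, and 16.8, 22.3 and 15.6% lower. The pheromone sensor Snmp1 rose by 1.37 in f/v, and was 1.16 lower in 2/v and 1.40 lower in Pb/2 than in f/v. The sodium channel gene ppk29, which acts in pheromone taste, fell by 1.60 in f/v and was 1.41 higher in 2/v and 1.03 higher in Pb/2 than in f/v. The related gene ppk19 changed by -1.32 (f/v), -1.24 (2/v) and -0.89 (Pb/2). The secreted proteins EbpIII and Phk-3, related to chemosensory proteins of other insects, fell in all 3 mutants. The changes were -0.71 (f/v), -1.38 (2/v) and -1.30 (Pb/2) for EbpIII, and -0.99 (f/v), -1.10 (2/v) and -1.32 (Pb/2) for Phk-3.

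Markers of other tissues moved with the comparisons against WT, in which 35% (f/v), 46.3% (2/v) and 31.3% (Pb/2) of all genes were called. Of 10 gut genes none rose and 9 fell in f/v, none and 9 in 2/v, and none and 10 in Pb/2, and their summed signal was 2967 to 3331 (f/v), 2322 to 2611 (2/v) and 2886 to 3349 (Pb/2), against 15607 to 17595 in WT. Of 8 muscle genes 7 fell and none rose in each mutant, and their sum was 20891 to 24905 over the mutants and 45742 to 47424 in WT. Of 4 spermathecal genes the falls numbered 3 (f/v), 2 (2/v) and 2 (Pb/2), with sums of 1027 to 1163, 1745 to 1906 and 1589 to 1934, against 3814 to 4236 in WT. Of 4 fat body genes 1 rose and 3 fell in each mutant. The lists were lower in the same comparisons in which Obp57a, Obp99b, Gr47b and Ir76a fell, namely all 3 mutants against WT, and Obp99a fell in f/v and 2/v but was not called in Pb/2. Their part in those falls was not tested. Some of these lists also moved between the sterile genotypes and f/v, where Ir75a and Obp57a rose in both and Obp69a in Pb/2. Of the 4 spermathecal genes 2 rose and none fell in 2/v and in Pb/2, and Send1 was 0.80 higher in 2/v and 0.75 higher in Pb/2 than in f/v. Of the 10 gut genes 1 rose and 1 fell in 2/v, and 4 rose and 3 fell in Pb/2. The gut protease genes alphaTry and Bace were among those that rose, alphaTry by 1.41 in 2/v and by 1.13 in Pb/2, Bace by 2.34 in Pb/2. Those that fell were LManII by 0.88 in 2/v, and Jon99Ci by 3.03, Mal-A3 by 1.15 and Mal-A2 by 0.99 in Pb/2. The median change of the 10 gut genes was -0.04 in 2/v and -0.03 in Pb/2. Of 7 glia genes 2 rose and none fell in 2/v and in Pb/2, and of 7 neuron genes 2 rose and none fell in 2/v, and 1 rose and none fell in Pb/2. Of 8 muscle genes 1 rose and 3 fell in 2/v, and none rose and 1 fell in Pb/2. Of 4 fat body genes 1 rose and 3 fell in each. Against f/v, 27.3% (2/v) and 20.5% (Pb/2) of all genes were called. The part of these lists in the rises was not tested.

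**Figure D5:**
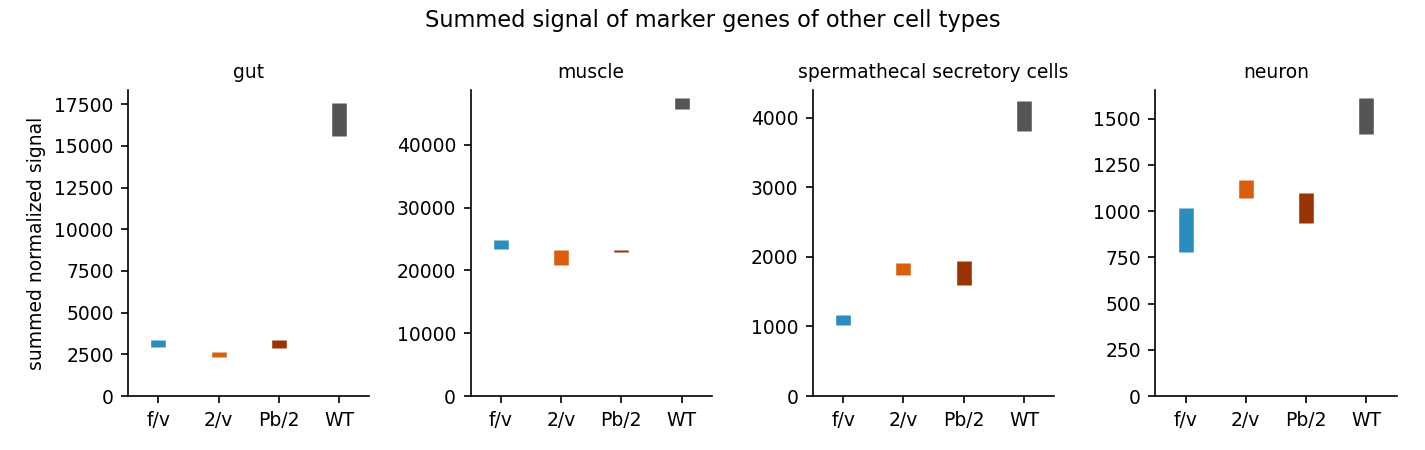
Range over 3 arrays (bars) of the summed normalized signal (vertical) of gut, muscle, spermathecal and neuron markers in each genotype (horizontal). All 4 sums are highest in WT, and the gut sum is 15607 to 17595 in WT and at most 3349 in a mutant.

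Neuron markers gave no uniform change. Of 7 tested neuron genes none rose and 2 fell in f/v, 1 rose and 1 fell in 2/v, and 2 rose and 2 fell in Pb/2 against WT. The shares called among all genes were 35% (f/v), 46.3% (2/v) and 31.3% (Pb/2). The pan-neuronal gene elav fell in all 3 mutants (-1.09 for f/v, -1.10 for 2/v and -1.08 for Pb/2), and nSyb, a synaptic vesicle gene, rose by 1.28 in 2/v and 1.06 in Pb/2. The neuron genes fne and Snap25 were at background on all 12 arrays. Of 7 glia genes none rose and 3 fell in f/v, 1 and 2 in 2/v, and none and 1 in Pb/2. Of 8 hemocyte genes 1 rose and 1 fell in f/v, 1 and 5 in 2/v, and none and 3 in Pb/2. Of 11 genes of the male accessory gland and testis 9 were at background on all 12 arrays, and the 1 that was tested, Acp26Aa, was called lower in 2/v. Of 10 ovary genes 2 rose and none fell in f/v, 2 and 4 in 2/v, and none and 2 in Pb/2.

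Probe sets assigned to several genes were left out of the tests, and 9 of them carry a member's name. Of these, 1, shared by Obp57d and Cpr57A, was above background on all 3 arrays of a genotype. It read 73.5, 155 and 24.8 in f/v, 113, 36.5 and 63.8 in 2/v and 35.6, 56.1 and 69.0 in Pb/2, against 205, 124 and 214 in WT. None of the 9 went from off in WT to on in a mutant.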

How the data were processed

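RNA was amplified by single primer isothermal amplification, per the labels' protocols. The authors deposited linear intensity values, 1 for each probe set and array. GCOS is named per the submitters' processing notes, and all 12 arrays share a mean of 1500 once 2% is trimmed from each end. Its version is not given in the sources used here. Intensities were transformed as log2(signal + 16) and quantile normalized over 18952 probe sets. Genes were named from the array annotation, and 402 probe sets with several genes and 4720 with none were left out. Each gene was represented by its probe set with the highest mean. The values of all 12 arrays, in 4 groups, entered a limma fit (version 3.58.1, R 4.3.3), which was tested on simulated data. Figures were drawn with matplotlib 3.10.9. Replicates were treated as unpaired. "At least" folds divide the brighter mean by background, or by the dimmer signal where that is higher. The number of arrays limits the precision. Members, 10 marker lists and tests were chosen with earlier results of these data known. Arrays were given in full for members that crossed background or changed at least 2-fold, and for up to 3 steady members of each family.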

Additional observations from a re-analysis of the deposited data

How the results depend on the processing

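The 81 calls of a member in a comparison kept their direction in all 1898 alternative values. Of these calls, 46 were kept under every alternative in which the member was tested. Members removed by the filter at the 60th percentile had no value under that alternative. With a filter at the 60th percentile the members called numbered 6 (f/v), 8 (2/v) and 9 (Pb/2) against WT and 5 (2/v) and 7 (Pb/2) against f/v, since fewer members were tested, and at an adjusted p below 0.01 they numbered 9 in f/v and 12 in Pb/2 against WT and 8 in Pb/2 against f/v. Leaving out single arrays gave 12 to 18 (f/v), 14 to 18 (2/v) and 16 to 23 (Pb/2) against WT and 10 to 13 (2/v) and 10 to 16 (Pb/2) against f/v. Members above background numbered 38 in WT with the line at the 90th percentile, and 14 in f/v and 17 in Pb/2 at the highest control value, an alternative added after seeing the data. With single arrays left out they numbered 25 to 29 in f/v, 27 to 29 in 2/v, 28 to 30 in Pb/2 and 27 to 31 in WT, where fewer arrays had to pass. Members that went from off to on in f/v against WT numbered 0 at the 90th percentile, 2 with the line of each array, and 1 to 2 with arrays left out. In 2/v against WT there were 2 at the highest control value and 1 to 3 with arrays left out, and in Pb/2 1 with values as deposited, at the 90th percentile or with the line of each array, and 2 to 3 with arrays left out. Against f/v there were 4 to 6 in 2/v and 5 to 7 in Pb/2 with arrays left out, and 2 in Pb/2 at the 90th percentile or with the line of each array. The cause of these shifts was not tested. Arrays with the same replicate number had correlations of -0.15 to 0.0996 after removal of group means (18 pairs, none above 0.1), so no strong effect followed that number. Batches that do not follow the number were not examined. With a replicate block 15, 16 and 22 members were called in f/v, 2/v and Pb/2 against WT, and 10 and 14 in 2/v and Pb/2 against f/v, and the block ended the calls of Gr61a in 2/v and of Ir93a and Obp83cd in f/v against WT, of Obp99d in Pb/2 against WT and of Obp19c in 2/v against f/v.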
